A study of Saccharomyces cerevisiae with 8 samples.

Results

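The transcript levels of a Saccharomyces cerevisiae strain that lives without ESA1 were compared with those of the wild type. The double mutant (esa1 sup2-) lacks ESA1 function and carries the suppressor mutation sup2-, which bypasses the need for that gene, and it was read on 3 arrays. The wild type (ESA1 SUP2) was read on 2. These 5 arrays were taken by their labels from a series of 8, whose other 3 come from a strain with sup2- but with ESA1 intact (ESA1 sup2-), called the single mutant here. The single mutant entered the fit and its values are given beside those of the double mutant. The labels name neither the gene behind SUP2, nor the strain background or mating type, nor whether a strain is 1 clone or its replicates are separate cultures, so the p-values cover the spread among these arrays alone, and that spread may be technical. All strains were grown overnight to saturation in 10 mL of YPD (yeast extract and peptone with 2% glucose) at 30 °C, and 5 µg of total RNA was labelled per array.

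Esa1 is the catalytic subunit of NuA4, a complex that acetylates the tails of histone H4 and of H2A and its variant, and in budding yeast the gene is essential. NuA4 is recruited to promoters of actively transcribed genes, those of ribosomal proteins among them. When glucose runs out, budding yeast turns from fermentation to respiration of ethanol and other non-sugar carbon, and in saturated cultures it represses ribosome synthesis and induces stress and storage genes.

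Each probe set on the array yields 1 MAS5 signal, a summary of the brightness of its short probes in arbitrary units. Of 5498 probe sets for S. cerevisiae genes, 4398 (4372 genes) were tested, the dimmest 20% having been dropped. The deposited arrays share a common mean, and 97.6% to 99.3% of the S. cerevisiae probe sets lay above a background bound of 8.23 to 12.4. Log2 fold changes are differences of log2(signal + 121), which understates the change of dim genes, and a probe set was called at a limma adjusted p under 0.05. Precision is limited by how few arrays there are. Each strain was washed and stained on a fluidics station of its own, so station and strain cannot be told apart. The ratio of the ACT1 3′ to 5′ control probe sets, a measure of RNA integrity, was 1.39 and 1.58 in the wild type and 1.29, 1.25 and 1.31 in the double mutant, and its part in the results was not tested.

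ESA1 (YOR244W, chromosome XV) was read first. Its signal was 1216 and 1067 in the wild type, 819, 894 and 877 in the single mutant, and 1.19, 3.34 and 0.267 in the double mutant. All double-mutant values lay below the background bound, so the transcript was at least 96.8-fold lower than in the wild type (limma adjusted p = 1.3e-08).

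The third double-mutant array stood apart on 1 chromosome. Chromosome XI had a median 0.71 above the other 2 double-mutant arrays on the log2(signal + 121) scale, which on the signal itself is 1.80-fold. Of its 252 probe sets, 94.8% were brightest on that array, against 20.6% to 36.9% on each of the other 15 chromosomes. In 25 consecutive runs of 10 neighbouring genes along chromosome XI the median difference lay between 0.58 and 0.85, and in the last run of 2 genes it was 0.79. DNA content was not measured, and the number of copies of this chromosome was not tested. Without this array limma called 3324 probe sets and without chromosome XI 3159, against 3277 in all. Values without it are given below for named genes on chromosome XI.

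**Figure D1:**
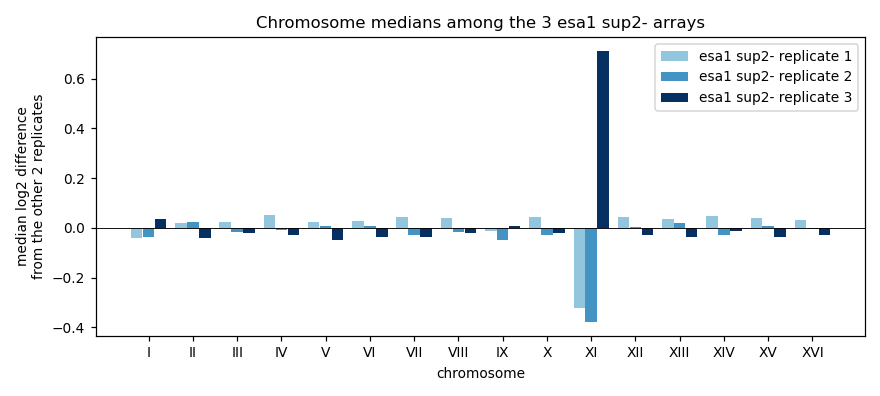
Median difference of each double-mutant array from the other 2 double-mutant arrays, in log2(signal + 121), for the tested probe sets of each of the 16 chromosomes. Bars are the 3 replicates, and chromosome XI of replicate 3 stands at 0.71 and of replicates 1 and 2 at -0.32 and -0.38, while every other bar lies between -0.05 and 0.05.

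The transcript profile of the double mutant was far from that of the wild type. Among 4398 probe sets 3277 were called (74.5%), 1669 of them higher (37.9%) and 1608 lower (36.6%). A called change of at least 2-fold was seen for 523 probe sets upward (11.9%) and 506 downward (11.5%). Decreases reached further: 139 probe sets were at least 4-fold lower and 53 at least 8-fold lower, against 63 and 10 higher. Arrays of the strains did not overlap for 3597 probe sets (81.8%). The SD of the log2 differences was 0.950 to 1.003 between wild-type and double-mutant arrays. It was 0.11 between the wild-type arrays and 0.26 to 0.32 among those of the double mutant. Among single-mutant arrays it was 0.09 between replicates 1 and 3, and 0.21 between replicate 2 and either of them. In the single mutant, set against the same wild-type arrays, 50.6% of probe sets were called, and between the double and the single mutant 67.6%.

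The balance of increases and decreases rests on the scaling. Of the called probe sets 50.9% were higher, and 67.3% were when the poly-A controls set the scale of each array, where the median of all probe sets moved from 0.01 to 0.26 on the log2 scale. Changes below are on the deposited scale, and a list is set against the 37.9% of all probe sets called higher and the 36.6% called lower. Unless stated otherwise a list counts only members that passed the filter on dim probe sets. A member that passed only through a bright wild type or a bright double mutant had to differ. The filter kept 22 of 32 iron uptake genes on the array, 26 of 36 silencing factors and 19 of 34 haploid and pheromone response genes.

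The 15 largest increases included 2 hexose transporters, 2 cell wall mannoproteins and 3 enzymes of nucleotide metabolism, and the other 8 are named after them. HXT1 (YHR094C), a low-affinity glucose transporter that glucose induces, had signals of 61.7 and 57.2 in the wild type, 96.9, 52.1 and 108 in the single mutant and 2172, 2891 and 1867 in the double mutant. The mean signal was 38.8-fold higher than in the wild type, or 3.73 in log2 (SE 0.17, limma adjusted p = 2.3e-07), and every double-mutant array lay far above the other 5. On all of these 5 HXT1 was under 121, as was YNR014W, another of the 15. Any of the 15 that passed the filter on dim probe sets only through a bright double mutant had to be higher. HXT2 (YMR011W), a high-affinity hexose transporter, went from 251 and 227 to 4412, 5119 and 4004 (3.68, SE 0.30), with 667, 293 and 850 in between in the single mutant.

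TIR1 (YER011W) and TIR3 (YIL011W), cell wall mannoproteins of cold and oxygen-poor cells, changed by 3.44 (SE 0.34) and 3.25 (SE 0.53). TIR1 had signals of 103 and 82.0 in the wild type and 2104, 1782 and 2778 in the double mutant. HUG1 (YML058W-A), a gene induced by DNA damage and by hydroxyurea, had signals of 61.3 and 56.9 in the wild type and 1851, 1490 and 2133 in the double mutant (3.42, SE 0.31). In all 3 of these genes every double-mutant array lay above every other array of the series. TIR3 went from 120 and 105 in the wild type to 2034, 2108 and 2135 in the double mutant. In the single mutant TIR3 was already at 1338, 242 and 1512 (2.03 in log2), while TIR1 and HUG1 stood at 0.70 and 0.55 there. The single-mutant arrays were split, with 346.5, 77.9 and 325 for TIR1 and 222, 37.0 and 219 for HUG1. For both genes replicate 2 lay below the wild type and replicates 1 and 3 above it.

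AAH1 (YNL141W), the adenine deaminase, went from 172 and 189 to 2975, 3717 and 2686, IMD4 (YML056C), an IMP dehydrogenase of guanine nucleotide synthesis, from 345 and 372 to 4017, 3974 and 3891, and URA7 (YBL039C), a CTP synthase, from 252 and 278 to 2669, 2862 and 2699. Their log2 fold changes were 3.42 (SE 0.18), 3.09 (SE 0.10) and 2.89 (SE 0.08). In the single mutant these 3 genes already stood at 1.84, 1.64 and 1.95, whereas HXT1 stood at 0.19. The other members of the 15 largest increases were the aldehyde reductase gene ARI1 (3.42), INA1 (3.40), the RNA helicase gene DBP2 (3.13), the hydrolase gene FSH1 (2.93), YNR014W (2.81), the alcohol dehydrogenase gene ADH6 (2.74) and the nucleolar protein gene NSR1 (2.70). The next gene in that order, ANB1, was at 2.67.

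The 15 largest decreases included genes of acetate, propionate and fatty acid use, a chaperone and a spore wall gene, and 2 of the 15 were below -1 in the single mutant. RGI2 (YIL057C), a gene of respiratory growth, had signals of 7755 and 9145 in the wild type, 8122, 8150 and 8186 in the single mutant and 150.8, 118.5 and 193 in the double mutant. The difference was -4.96 in log2 (SE 0.12) with a limma adjusted p of 1.3e-08, and the mean signal was 54.8-fold lower. CIT3 (YPR001W), a mitochondrial citrate and methylcitrate synthase, went from 3969 and 4228 to 32.3, 38.6 and 40.9 (-4.74, SE 0.08), a 110-fold lower mean signal.

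An acetate transporter and enzymes of propionate and glyoxylate metabolism were likewise near the wild type in the single mutant. ADY2 (YCR010C), an acetate transporter, went from 6155 and 6964 to 166, 251 and 220 (-4.33, SE 0.11). PDH1 (YPR002W), which acts in propionate breakdown, went from 5058 and 5485 to 149, 154 and 207 (-4.22, SE 0.10). MLS1 (YNL117W), the malate synthase of the glyoxylate cycle, went from 5509 and 6238 to 268, 180 and 220 (-4.13, SE 0.12). The lowest single-mutant signal among these 3 genes was 5558 and the highest double-mutant signal 268.

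FDH1 (YOR388C), a formate dehydrogenase, was higher in the single mutant than in the wild type, with 4846 and 4543 in the wild type, 9704, 8694 and 9516 there, and 52.2, 135 and 38.8 in the double mutant (-4.65, SE 0.18). SPS100 (YHR139C), a spore wall gene, was already low in the single mutant, with 5612 and 6312 in the wild type, 270, 383 and 358 there, and 108, 150 and 88.6 in the double mutant (-4.69, SE 0.14). The rest of the 15 largest decreases were the stationary-phase gene SPG1 (-4.41), the Hsp70 gene SSA3 (-4.35), the thiolase gene POT1 (-4.19), the peroxisomal catalase gene CTA1 (-4.18), the succinate dehydrogenase homologue SHH3 (-4.11), the desiccation gene SIP18 (-4.08), the carnitine acetyltransferase gene YAT2 (-4.07) and the glutamate dehydrogenase gene GDH3 (-4.06). GRE1 was next at -4.03. Without double-mutant replicate 3 the 15 increases ran from 2.72 to 3.86 and the 15 decreases from -5.07 to -4.03.

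**Figure D2:**
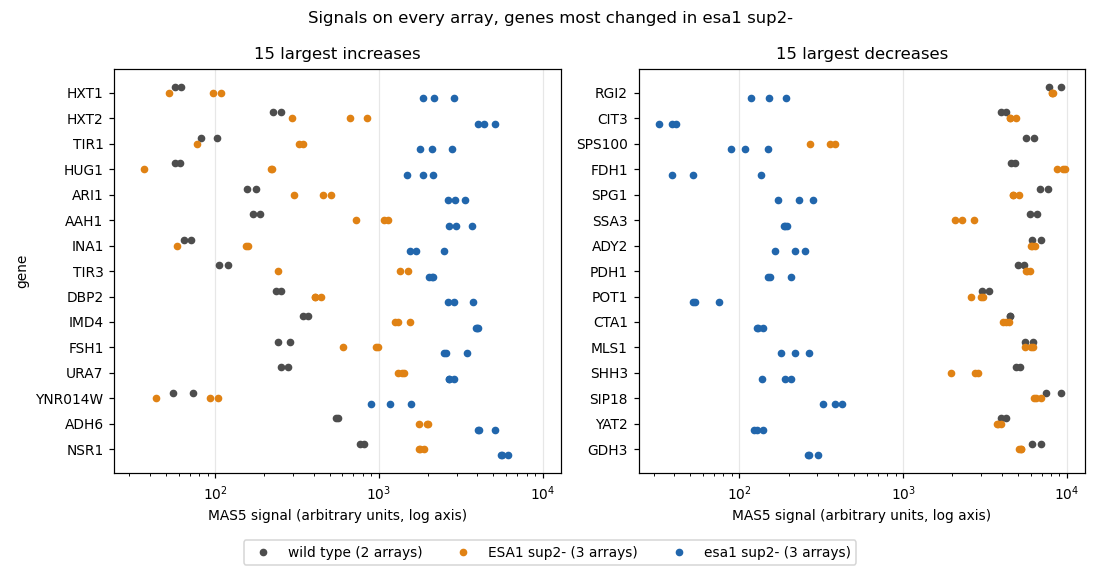
MAS5 signals (arbitrary units, log axis) of the 15 genes with the largest increases and the 15 with the largest decreases, all called and with no overlap between strains. Each point is 1 array, coloured by strain. Double-mutant points lie apart from wild-type points in every row, while single-mutant points lie near the wild type for genes such as HXT1 and RGI2 and in between or near the double mutant for AAH1 and SPS100.

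Genes of non-sugar carbon use were lower as a group. Of 23 genes of the glyoxylate cycle, gluconeogenesis and acetate use, 22 were lower and 1 higher, with a median log2 fold change of -2.97, while the single mutant had a median of -0.07. The higher gene was MAE1, the malic enzyme that makes pyruvate from malate, on chromosome XI (1.27, and 1.08 without double-mutant replicate 3). Of 24 genes of fatty acid beta-oxidation and the peroxisome 21 were lower and 2 higher (median -1.63). IDP3, the peroxisomal isocitrate dehydrogenase, was at -3.90 (SE 0.10), from 2605 and 2643 to 51.9, 53.9 and 82.7. NPY1, a peroxisomal NADH pyrophosphatase, was at 0.56. Both medians lie outside the middle 50% of all probe sets, which spanned -0.54 to 0.56. Without wild-type replicate 1 only 1 gene of the second list was called higher.

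Transcripts of mitochondrial respiration genes were lower with smaller steps. Of 28 listed genes of the mitochondrial genome none was measured, and respiration itself was not measured. In the tricarboxylic acid cycle 16 of 17 genes were lower, with no increase (median -1.04). After CIT3 the largest decreases were those of SDH2, the iron-sulphur subunit of succinate dehydrogenase, at -2.04 (SE 0.10), and KGD1, of the 2-oxoglutarate dehydrogenase, at -2.02 (SE 0.13). The respiratory chain and ATP synthase held 30 decreases and 2 increases among 40 genes (median -0.58, and -0.23 in the single mutant), and with poly-A control scaling 18 were lower. The higher count was 1 without either wild-type array, without double-mutant replicate 1 or 2 and without single-mutant replicate 3. The external NADH dehydrogenase gene NDE2 was at -3.64, the internal one, NDI1, at -2.02 and the cytochrome c1 gene CYT1 at -1.50. COX5B, the oxygen-repressed isoform of a cytochrome oxidase subunit, rose from 494 and 427 to 1676, 2147 and 2005 (1.82, SE 0.25).

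Sugar uptake and fermentation genes were called in both directions. Of 19 hexose transporter and sensor genes listed, 17 were on the array and 7 passed the filter on dim probe sets, and a gene that passed only because the double mutant was bright had to differ. Of these 7, 4 were higher and 2 lower. HXT3, a low-affinity transporter, went from 1087 and 1060 to 6893, 7216 and 5893 (2.50, SE 0.12), and HXT5, a transporter of slow-growing cells, from 5467 and 6280 to 671, 571 and 560 (-3.05, SE 0.10). SNF3, the sensor of low glucose, was at -1.16 (SE 0.09). HXT10 was below background in the double mutant.

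Of 31 glycolysis and fermentation genes 12 were higher and 9 lower, beside 37.9% and 36.6% of all probe sets. HXK2, the hexokinase of glucose-grown cells, went from 1315 and 1230 to 5085, 5662 and 4945 (1.94, SE 0.14), and ADH2, the alcohol dehydrogenase that consumes ethanol, from 7087 and 8647 to 555, 1707 and 628 (-3.03, SE 0.36). The glycerol phosphatase genes GPP2 and GPP1 were at 2.40 and 1.31, and the minor isoform genes PDC6 and GPM2 at -2.81 and -2.47. SUC2, the secreted invertase, was at -1.30 (SE 0.15), from 1459 and 1661 to 587, 508 and 592. The sugar kinase, the transporters and the invertase each had double-mutant arrays that did not overlap with the wild type, as did 81.8% of all probe sets.

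Storage carbohydrate genes showed 10 decreases and 4 increases among 21. ATH1, the acid trehalase, was at -2.61, PIG2, a regulator of glycogen synthase, at -1.92, and GDB1, the glycogen debranching enzyme, at -1.64. PGM1, a phosphoglucomutase on chromosome XI, went from 186 and 206 to 1611, 1308 and 2512 (2.56, and 2.31 without double-mutant replicate 3). SGA1, a glucoamylase of sporulating cells, was at 1.28.

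Genes for making ribosomes and proteins rose nearly throughout. Among 127 measured cytosolic ribosomal protein genes there were 124 increases and no decrease (97.6% against 37.9% of all probe sets), with a median of 0.78 and a range of 0.16 to 1.86. RPL9A went from 1716 and 1594 to 6179, 6831 and 5993 (1.86, SE 0.08), and RPS22A and RPL6B were at 1.84 and 1.78. Several ribosomal protein genes have near-identical copies, whose probe sets can read both. RPS9A was uneven, with 2708, 729 and 3143 on the double-mutant arrays against 852 and 872 in the wild type.

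Of 118 ribosome biogenesis genes 115 were higher and 1 lower, with a median of 1.15. NOP1, the fibrillarin of the nucleolus, went from 588 and 537 to 4255, 4260 and 3688 (2.61, SE 0.10). The lower gene was SPB4, a helicase of ribosome assembly, at -0.26 (SE 0.09, limma adjusted p = 0.026), with 365 and 347 against 264, 298 and 268. It was not called without either wild-type array or without double-mutant replicate 1 or 3 (log2 fold changes -0.24 to -0.29), nor with quantile normalization (-0.14), median centring (-0.19) or poly-A control scaling (-0.06).

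Of 21 subunit genes of RNA polymerases I and III, which transcribe ribosomal and transfer RNA, 20 were higher and none lower (median 1.24). RPA12, RPA34 and RPA49, all of polymerase I, were at 2.11, 1.79 and 1.78. Translation factors and tRNA synthetases showed 46 increases and 1 decrease among 53 (median 0.68). The synthetase genes KRS1 (lysine) and HTS1 (histidine) were at 1.76 and 1.59. GLN4, the glutaminyl-tRNA synthetase, was at -0.34, and without double-mutant replicate 1 the lower count was 2. ANB1, a translation factor of oxygen-poor cells, was at 2.67 (SE 0.45), with 110 and 91.8 in the wild type, 1327, 350 and 1400 in the single mutant and 992, 1235 and 1718 in the double mutant.

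The ribosome lists were also higher in the single mutant, at medians of 0.39 for ribosomal proteins, 0.75 for ribosome biogenesis and 0.71 for the polymerases. For translation factors the single mutant stood at 0.16 and for mitochondrial ribosomal proteins at -0.06. Mitochondrial ribosomal proteins showed 48 increases and 5 decreases among 75 (median 0.46), and 8 of the 75 lie on chromosome XI. Without double-mutant replicate 3 they were higher in 45 and lower in 8, and without wild-type replicate 2 lower in 3. MRPL32 and MRP13 were at 1.32 and 1.28, MRPL20, on chromosome XI, at 1.43 (1.06 without that array). KGD4, on this list, was at -1.40 and is now known as a subunit of the 2-oxoglutarate dehydrogenase.

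**Figure D3:**
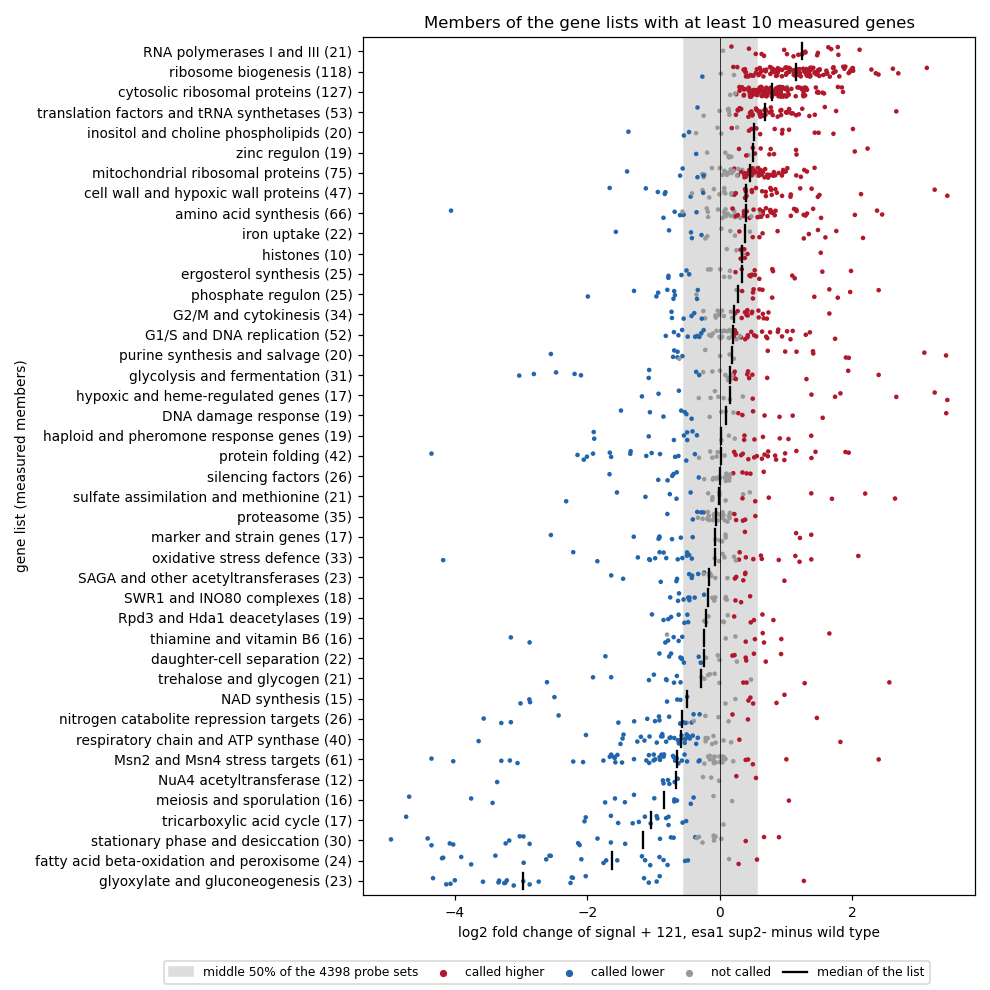
Log2 fold change of each measured member of the gene lists with at least 10 measured genes, double mutant minus wild type. Points are genes, red where called higher, blue where called lower and grey where not called, black ticks are list medians and the grey band spans the middle 50% of all 4398 probe sets. The ribosome lists lie to the right at the top and the glyoxylate, beta-oxidation, stationary-phase and tricarboxylic acid cycle lists to the left at the bottom.

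Biosynthetic lists rose in part. Amino acid synthesis genes showed 37 increases and 7 decreases among 66 (median 0.39), and without wild-type replicate 1 lower in 4. LEU9, a minor isopropylmalate synthase, went from 181.8 and 153 to 1549, 1469 and 1352 (2.45, SE 0.10). HIS1, the first enzyme of histidine synthesis, went from 675 and 646 to 4274, 3930 and 3617 (2.38, SE 0.13), and ARO7, chorismate mutase, was at 2.04. GDH3, LYS5 and GLT1 were at -4.06, -0.85 and -0.68. Some arginine and histidine genes were low on double-mutant replicate 2 alone, such as ARG1 with 4332, 1330 and 2677 against 1776 and 1754 in the wild type, and HIS4 with 5114, 1516 and 3578 against 2312 and 2318. These 2 genes were picked for their spread after their values were seen.

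In sulphur metabolism 7 of 21 genes were higher (33.3%) and 6 lower (28.6%), beside 37.9% and 36.6% of all probe sets. The S-adenosylmethionine synthetase genes SAM1 and SAM2 were at 2.65 and 2.20, SAM1 from 485 and 450 to 3320, 3861 and 3521. CYS3, of cysteine synthesis, was at 1.69. MMP1, the transporter of S-methylmethionine, was at -2.32, STR2 at -1.55 and the regulator gene MET28 at -1.12. In purine synthesis 9 of 20 genes were higher and 6 lower. AAH1, IMD4 and GUA1, the GMP synthase (1.95), rose, whereas ADE2, of the adenine pathway, went from 2563 and 2654 to 385, 299 and 355 (-2.55, SE 0.10), with 1018, 1154 and 1034 in the single mutant. ADE1 was at -0.70 and the regulator gene PHO2 at -0.69.

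Lipid genes rose more often than they fell. Ergosterol synthesis genes showed 14 increases and 5 decreases among 25. ERG4, the last enzyme of that pathway, was at 1.98, ERG27 at 1.55 and MVD1 at 1.13, and HMG1 and ERG7 both at -0.78. Phospholipid genes of the inositol and choline group showed 13 increases and 3 decreases among 20 (median 0.51, against 0.48 in the single mutant). PIS1, the phosphatidylinositol synthase, went from 861 and 802 to 3670, 3808 and 3669 (2.01, SE 0.14). PSD1 and EPT1 were at 1.72 and 1.49, and the inositol phosphatase gene INM2 at -1.38.

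General stress genes were lower in the double mutant. Of 61 genes that the stress factors Msn2 and Msn4 activate, 37 fell and 5 rose (60.7% and 8.20%), with a median of -0.65, beside -0.41 in the single mutant. GRE1, a hydrophilin, went from 5706 and 7148 to 296, 321 and 225 (-4.03, SE 0.16), with 2419, 1762 and 2205 in the single mutant. GND2, the minor 6-phosphogluconate dehydrogenase, was at -3.30. GPP2, also on this list, was at 2.40, and MRK1, a kinase gene related to GSK-3, was at 1.005.

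Of 30 stationary-phase and desiccation genes 19 were lower and 3 higher (median -1.16). RGI2, SPG1 and SSA3 led the decreases, whereas RGI1, a paralogue of RGI2, had 5319 and 5667 in the wild type and 7170, 7576 and 6986 in the double mutant (0.39, SE 0.06). Quantile normalization gave RGI1 a limma adjusted p of 0.065, and all alternatives spanned 1.1e-04 to 0.065.

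Protein folding genes were called in both directions, with 20 of 42 higher (47.6%) and 16 lower (38.1%), beside 37.9% and 36.6% of all probe sets. ERO1, an oxidase of the endoplasmic reticulum, went from 509 and 537 to 3097, 1741 and 2429 (1.95, SE 0.19), SSA2, a constitutive Hsp70, was at 1.90 and SIL1, of the endoplasmic reticulum, at 1.45. SSA3 and HSP82, stress-induced Hsp70 and Hsp90 genes, were at -4.35 and -2.15. HSP30 had 6421 and 7342 in the wild type and 2000, 2731 and 666 in the double mutant (-2.05, SE 0.43), where replicate 3 was the lowest. In oxidative stress defence 11 of 33 genes were higher and 16 lower. OYE2, an NADPH oxidoreductase, and TRR1, the thioredoxin reductase, were at 2.09 and 1.38, and CTA1, GPX1 and GTT1 at -4.18, -2.21 and -1.85, with GPX1 on chromosome XI (-2.40 without double-mutant replicate 3).

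DNA damage genes showed 8 increases (42.1%) and 7 decreases (36.8%) among 19, beside 37.9% and 36.6% of all probe sets. In the proteasome 5 of 35 genes were higher and 5 lower. Besides HUG1 the increases were led by TOS4 (1.55) and RNR1, the large subunit of ribonucleotide reductase (1.10), and the decreases by MAG1 (-1.49), a DNA glycosylase, DDI1 (-1.05) and RAD2 (-0.85). MAG1 and DDI1 are neighbouring genes. The proteasome counts ranged from 3 to 10 higher and from 1 to 9 lower over the alternatives, with 3 higher and 3 lower without either wild-type array, 3 higher without single-mutant replicate 1 or 3 and 9 lower without double-mutant replicate 1. UMP1, a proteasome assembly factor, was at -0.79.

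Nutrient uptake lists differed in direction. Targets of nitrogen catabolite repression showed 18 decreases and 3 increases among 26 (median -0.57, against -0.08 in the single mutant), and with poly-A control scaling 11 were lower. PUT4, the proline permease, went from 3476 and 4199 to 248, 317 and 107 (-3.56, SE 0.23). PUT1, the proline oxidase, was at -3.15 and DIP5, the permease of acidic amino acids, at -3.30. OPT1, an oligopeptide transporter, was at 1.47.

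Iron uptake genes showed 11 increases and 5 decreases among 22, or 3 without either wild-type array. FET3, the multicopper ferroxidase, went from 191 and 140 to 1218, 1034 and 1229 (2.16, SE 0.14), and the siderophore transporter gene SIT1 was at 1.59. FRE1, a ferric reductase, had wild-type arrays that differed, at 184 and 632, against 1492, 1583 and 1435 (1.76, SE 0.31). ISU1, the scaffold of iron-sulphur clusters, was at -1.57. In the zinc regulon 12 of 19 genes were higher and 1 lower, or 2 without double-mutant replicate 1. ZRT1, the high-affinity zinc transporter, went from 954 and 892.5 to 3695, 5623 and 3474 (2.04, SE 0.17), with 4095, 4077 and 3991 in the single mutant, so both sup2- strains were high. MCD4, on chromosome XI, was at 2.23 (2.03 without double-mutant replicate 3).

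Phosphate genes showed 12 increases (48%) and 10 decreases (40%) among 25, beside 37.9% and 36.6% of all probe sets. PHO5, the secreted acid phosphatase, went from 1697 and 1619 to 7223, 7632 and 5816 (1.97, SE 0.17), with 5767, 4109 and 6098 in the single mutant. VTC3, of polyphosphate synthesis, was at 1.78 and GIT1, a glycerophosphoinositol permease, at -1.99. GPP2, also on this list, was at 2.40, and PHO89 and PHO11 were lower, at -1.295 and -0.96. PHO11, read by a shared probe set, was not called with quantile normalization or median centring. NAD synthesis genes showed 8 decreases and 5 increases among 15. BNA4 and BNA6, of synthesis from tryptophan, were at -3.01 and -2.88 and TNA1, the nicotinic acid permease, at -2.87. TNA1 had 2683 and 2767 in the wild type, 794, 762 and 789 in the single mutant and 296.8, 228 and 288 in the double mutant. Of 16 measured genes of thiamine and vitamin B6 synthesis 6 were higher (37.5%) and 7 lower (43.75%). THI13 and SNZ3, read by probe sets shared with related genes, were at -3.15 and -2.87.

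Of 12 measured NuA4 members, ESA1 itself among them, 7 were lower and 2 higher (median -0.66, and -0.20 in the single mutant). Without ESA1, which the double mutant lacks by its label, 6 of 11 were lower (median -0.63), and without wild-type replicate 1 the higher count was 1. EAF3, a chromodomain subunit, went from 2763 and 2755 to 1623, 1471 and 1349 (-0.85, SE 0.09). EAF6, of the catalytic module, went from 839 and 847 to 369, 321 and 572 (-0.86, SE 0.16).

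Its partners EPL1 and YNG2 were at -0.76 (SE 0.14) and -0.68 (SE 0.10), with 510 and 445 against 204, 195 and 306 for EPL1. TRA1, the large activator-binding subunit shared with SAGA, was at -0.78 (SE 0.17) and ARP4, an actin-related protein, at -0.63 (SE 0.08). EAF1, the scaffold, was not called at -0.25 (SE 0.10, limma adjusted p = 0.053), with 364 and 412 against 285, 269 and 369. It was called without chromosome XI (limma adjusted p = 0.0465), and without double-mutant replicate 3 it was at -0.35 and called (limma adjusted p = 0.004), and the alternatives ranged from 0.004 to 0.812.

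SWC4 and EAF5 were not called, at -0.13 (SE 0.08) and -0.01 (SE 0.11). YAF9, a YEATS-domain subunit shared with SWR1, went from 305 and 301 to 514, 545 and 441 (0.55, SE 0.09). ACT1, the actin gene that is also a member, had 6919 and 8069 against 8711, 9469 and 8580 (0.25, SE 0.08). Without wild-type replicate 1 ACT1 was not called (limma adjusted p = 0.147) and neither was it with quantile normalization (limma adjusted p = 0.347, where all alternatives spanned 2.0e-04 to 0.347).

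Other chromatin lists held smaller changes. Of all probe sets 36.6% were called lower and 37.9% higher. The shares were 50.0% and 16.7% for SWR1 and INO80, and 42.1% and 26.3% for the deacetylases. For SAGA and other acetyltransferases they were 43.5% and 26.1%. SWR1 and INO80 subunits showed 9 decreases and 3 increases among 18, or 1 without either wild-type array, with ARP8 at -0.75 and IES2 at -0.63. Rpd3 and Hda1 deacetylase genes showed 8 decreases and 5 increases among 19. SNT1, of the Set3 complex, was at -1.02 and SIN3 at -0.78, and UME6, a repressor that recruits Rpd3, at 0.81, from 396 and 356 to 749, 651 and 861. SAGA and other acetyltransferase genes showed 10 decreases and 6 increases among 23, or 2 without either wild-type array. YNG1, of the NuA3 acetyltransferase, went from 1284 and 1247 to 352, 335 and 287 (-1.64, SE 0.09), and HPA2 was at -1.46. Among them SGF11, of the deubiquitinating module, was at 0.98.

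Silencing factors showed 7 decreases and 5 increases among 26, and the latter count ranged from 0 to 11 over the alternatives, with 2 without either wild-type array and 3 without double-mutant replicate 1. SUM1, a repressor of middle meiotic genes, went from 1224 and 1276 to 355, 234 and 357 (-1.67, SE 0.13), and ABF1, on chromosome XI, was at -0.93 (-0.91 without double-mutant replicate 3). DOT1, the histone H3 methyltransferase, was at 0.46. Of the silencing factors 26.9% were lower and 19.2% higher, beside 36.6% and 37.9% of all probe sets. Histone genes showed 6 increases and no decrease among 10 (median 0.34). HTB2, which encodes H2B, went from 1321 and 1234 to 3670, 4425 and 3653 (1.52, SE 0.19), while its paralogue HTB1 was at 0.42 and the H4 gene HHF1, read by a shared probe set, at 0.38.

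Cell cycle and cell state lists were read next. G1/S and replication genes showed 24 increases and 10 decreases among 52 (median 0.20, and 0.38 in the single mutant). POL30, the replication clamp, went from 1289 and 1228 to 2738, 4059 and 3148 (1.30, SE 0.15), and the fatty acid elongase gene ELO1 and SVS1, also on this list, were at 1.74 and 1.36. CTF4, DPB3 and MRC1, of the replication fork, were at -0.82, -0.69 and -0.63. G2/M and cytokinesis genes showed 17 increases and 6 decreases among 34 (median 0.21, and 0.49 in the single mutant), and without wild-type replicate 2 higher in 11. DBF2, a kinase of mitotic exit, was at 0.74 and the cyclin gene CLB4 at 0.71. SIC1, the inhibitor of S-phase cyclin kinases, went from 571 and 561 to 309, 331 and 245 (-0.73, SE 0.10), with 719, 780 and 670 in the single mutant.

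Daughter-cell separation genes showed 10 decreases and 7 increases among 22. The higher count was 4 without either wild-type array and without double-mutant replicate 1 or 2. DSE4, a glucanase of cell separation, went from 1398 and 1223 to 371, 303 and 264 (-1.73, SE 0.15), while DSE2, another glucanase of that step, was at 0.93. Cell wall genes showed 29 increases and 7 decreases among 47 (median 0.39). UTR2, a chitin transglycosylase, was at 2.13, and KNH1 and SKN1 at -1.66 and -1.12. Of 25 hypoxic and heme-regulated genes on the array 17 passed the filter on dim probe sets. Of these 17, 7 were higher (41.18%) and 3 lower (17.65%), beside 37.9% and 36.6% of all probe sets. ROX1, the repressor of hypoxic genes, went from 954 and 964 to 391, 409 and 281 (-1.18, SE 0.14).

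Meiosis and sporulation genes were dim in these cultures. Of 67 on the array 16 passed the filter, of which 13 were lower and 1 higher (median -0.84, and -0.04 in the single mutant). A gene such as AQY1 or SPS100 passed through its bright wild type and had to be lower. Without the filter 41 of all 67 were lower (61.2%) and 9 higher, against 38.9% and 33.9% of all probe sets. IME1, the master regulator of meiosis, had 599 and 536 in the wild type, 471, 422 and 496 in the single mutant and 120, 161 and 123 in the double mutant (-1.43, SE 0.10). IME2, the kinase that follows it, went the other way, with 188 and 168.5 in the wild type, 1351, 1074 and 1366 in the single mutant and 509, 453 and 525 in the double mutant (1.04, SE 0.11). The 3 strains did not overlap for IME2, and the single mutant was the highest. SPS19, a peroxisomal reductase gene, and AQY1, an aquaporin gene, were at -3.75 and -3.43.

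Mating-type markers were read on every array. None of 7 genes specific to a cells passed the filter, and their signals were at most 408 on any array. Their summed signal was 610 to 632 in the wild type, 417 to 970 in the single mutant and 395 to 610 in the double mutant. All 4 genes specific to alpha cells passed, and their sum was 5515 to 5588 in the wild type, 3752 to 5875 in the single mutant and 6856 to 11010 in the double mutant. Most of this sum came from MF(ALPHA)1, an alpha-factor gene, which had 4209 and 4274 in the wild type and 4530, 5359 and 5317 in the double mutant, and was not called. STE3, the receptor for a-factor, had 294 to 351 in the single mutant, 825 and 708 in the wild type and 846, 729 and 1799 in the double mutant, and it lies on chromosome XI. STE3 was not called, at 0.40 in log2, and it was at 0.03 without double-mutant replicate 3. Without that array the alpha sum was 6856 and 7098 in the double mutant.

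Of the 4 alpha-specific genes 2 were higher, or 1 without either wild-type array. SAG1, the alpha agglutinin, had 403 and 375 in the wild type and 722, 705 and 1667 in the double mutant (1.08, SE 0.29). In the single mutant SAG1 had 854, 778 and 853, above double-mutant replicates 1 and 2. MF(ALPHA)2, the minor alpha-factor gene, had the widest spread of the tested genes among the double-mutant arrays, with 152 and 158 in the wild type against 758, 305 and 2227 (1.80, SE 0.54). It was not called without wild-type replicate 1 or 2 (limma adjusted p = 0.064 and 0.060, where all alternatives spanned 3.4e-04 to 0.064). SAG1 was called under every alternative (limma adjusted p of at most 0.046). Of 19 haploid and pheromone response genes 7 were higher (36.8%) and 9 lower (47.4%), beside 37.9% and 36.6% of all probe sets. STE4, the beta subunit of the pheromone receptor's G protein, went from 613 and 559 to 1266, 1332 and 1390 (1.04, SE 0.12), and PRM8 and PRM4 were both at -1.90. HO, the mating-type switching endonuclease gene, rose from 135 and 161 to 531, 773 and 468 (1.38, SE 0.21). Of the 5 sporulation markers none lay below background, and their sum was 1099 to 1202 in the wild type and 248 to 296.7 in the double mutant.

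**Figure D4:**
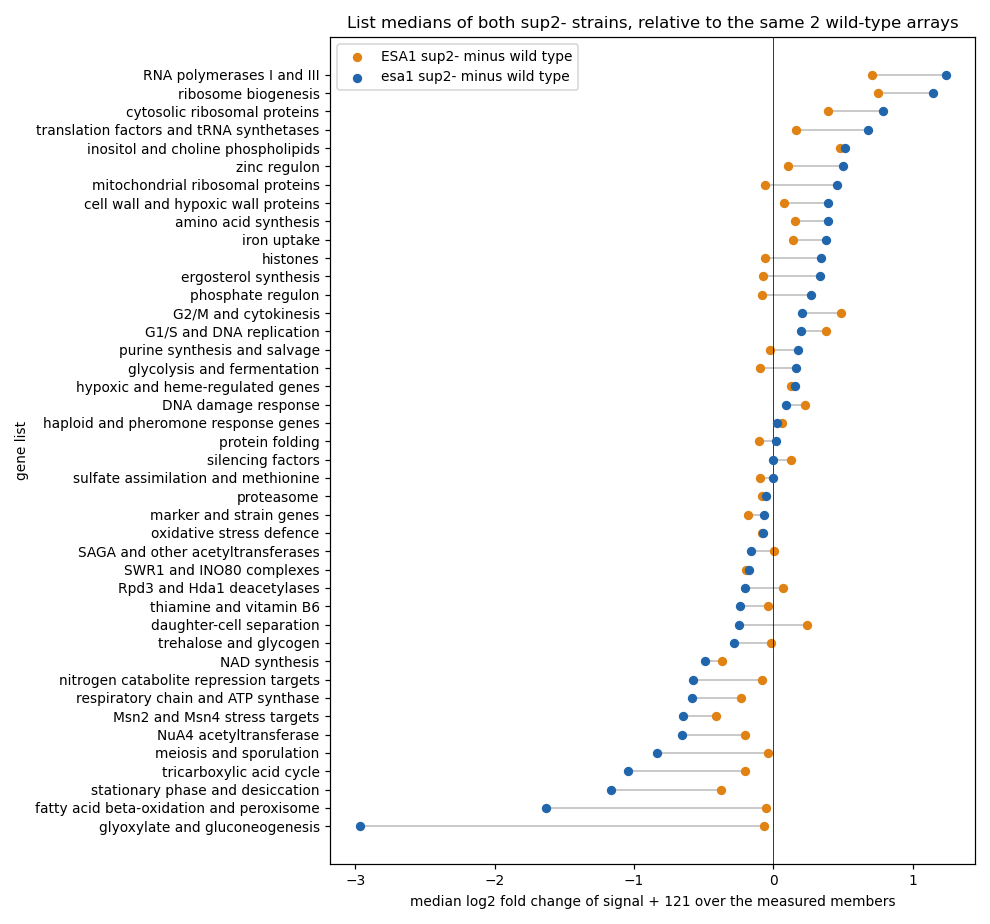
Median log2 fold change of the lists with at least 10 measured genes, for the single mutant (orange) and the double mutant (blue), each against the same 2 wild-type arrays. The glyoxylate and gluconeogenesis list has the widest gap, from -0.07 to -2.97, while the inositol and choline phospholipid list is at 0.48 and 0.51.

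Genes at the ends of chromosomes were read as a group. The 10 outermost annotated genes of each of the 32 chromosome ends are 320 genes, with 247 probe sets on the array. Of these 103 (41.7%, against 80.0% of all) passed the filter on dim probe sets, and one that passed only through a bright wild type had to be lower. Among the 103, 66 were lower (64.1%) and 22 higher (21.4%), with a median of -0.63, against 35.9% lower and 38.3% higher among all other tested probe sets (median 0.03). At least 2-fold lower were 40. Without the filter 158 of all 247 were lower (64.0%) and 27 higher (10.9%), against 37.8% and 34.9% of the other probe sets. With probe sets shared between genes left out, 51 of 84 were lower and 20 higher. In the single mutant 36 of the 103 were lower and 21 higher, where 22.1% and 28.5% of all probe sets were called.

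These genes were of several kinds. FDH1, GDH3, YAT1 and the lactate permease gene JEN1 (-3.22, and -3.38 without double-mutant replicate 3, being on chromosome XI), of carbon and nitrogen use, and the thiamine and vitamin B6 genes THI13, SNZ3 and SNO4 were among them. COS2, of a family of subtelomeric membrane proteins, had 3593 and 3776 in the wild type, 334, 141 and 191 in the single mutant and 119, 254 and 142.1 in the double mutant (-3.73, SE 0.24). COS4 was at -2.67, and both are read by probe sets shared with related genes. AAD10, a putative aryl-alcohol dehydrogenase gene, was at -2.12. ADH6, at 2.74, and ZRT1, at 2.04, are outermost genes that rose. FDH1, GDH3, ADH6 and ZRT1 are described above with other groups.

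Some transcripts fell below the background bound in the double mutant. This held for 33 probe sets of 31 genes that were above it in the wild type, ESA1 among them, and 14 of the 33 belong to outermost genes. Only ESA1 passed the filter, so the others were not tested. The bound was higher on the double-mutant arrays (12.4, 11.7 and 11.3) than on the wild-type arrays (9.76 and 9.18). That difference favours probe sets below it in the double mutant alone. For 11 probe sets the decrease was at least 5-fold. AAD3, another putative aryl-alcohol dehydrogenase gene, was read by 3 of these, 2 of them shared with related genes, the brightest, a shared one, at 647 and 577 in the wild type, 19.6, 116 and 16.1 in the single mutant and 3.13, 7.86 and 4.44 in the double mutant, at least 51.9-fold lower. YIR042C was at least 34.2-fold lower, YER187W at least 24.6-fold and YOL162W at least 15.9-fold.

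The other genes past 5-fold were the regulator gene RDS1 (at least 9.41-fold), YLR462W (8.97, a shared probe set), HXT10 (7.06) and YGL258W-A (6.86). Single-mutant signals of these 8 genes lay between 1.22 and 116, under the wild type on every array. For 20 further probe sets the bound on the fold lay between 1.12 and 3.91, and for 2 it was under 1, so that no fold is given. In the other direction FRE5, a putative ferric reductase gene, was below background in the wild type, at 6.61 and 5.14, and had 38.1, 18.9 and 32.5 in the double mutant, at least 3.02-fold higher.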

How the data were processed

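The values are linear signal intensities per probe set, deposited by the authors. The submitters' processing notes name MAS5 and GCOS, with no version given in the sources used here. The authors' scaling left a trimmed mean of 499.8 on each array, with 2% left out at each end. Platform annotation gave 5498 of 10928 probe sets 1 S. cerevisiae gene (5449 genes), and a RefSeq R64 table updated 12 symbols and gave chromosomes and gene order. No build is named for the array, so no coordinates are printed, and promoter sequences were not used here. The tested scale was log2(signal + 121), with 121 the rounded 10th percentile, and probe sets in the lowest 20% of means were left out. Strains were compared in 1 fit of all 8 arrays with limma 3.58.1 in R 4.3.3 (lmFit, eBayes with trend, Benjamini-Hochberg adjustment over all 4398), and the steps were tested on simulated data. The background bound of an array was the 99th percentile of its 1746 probe sets outside the S. cerevisiae table, and a fold against it sets the bright strain's mean log2 signal against that of the dim strain's signals raised to the bound. Members and the 47 gene lists (1608 symbols, 9 unmatched) were chosen with earlier results of these data known. Genes named were drawn from ESA1, all NuA4 members, the 15 largest changes in each direction among called genes with arrays that do not overlap, for each list the 3 largest called changes in each direction, and genes below background in either strain. Others, which are IME1, RPS9A, ARG1, HIS4, MF(ALPHA)1, STE3, YAT1, JEN1 and SNO4, were added after their values were seen or as mating-type and sporulation markers, and isoform pairs in the closing section after their values were seen. The brightest probe set stood for each of the 26 genes with more than 1. Deviations of same-numbered arrays from their strain means had correlations of -0.09 to 0.14. With 2 or 3 arrays per strain this check is weak, so whether replicate numbers pair arrays was not settled, and the main fit does not pair them. Alternatives were other pseudocounts, scalings, filters and variance models, the replicate block, a fit of the 5 arrays alone and each array left out, and, chosen after seeing the data, fluidics module as a block and leaving out chromosome XI or shared probe sets. Figures were drawn with matplotlib 3.10.9.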

Additional observations from a re-analysis of the deposited data

Results flagged for a closer look

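A reporter probe set of the array, which stands for no yeast gene in the annotation and enters none of the comparisons, was bright in the double mutant alone. Its signal was 3.02 and 3.999 in the wild type, 2.90, 5.04 and 3.61 in the single mutant and 8495, 9299 and 8093 in the double mutant, with a mean of 8629 (SD 614, n = 3). That is at least 910-fold above the background bound of the wild-type arrays. It was picked out because it is a signal in data outside the main measurement that is far above the control arrays. It was the 1 of 47 reporter probe sets with this pattern. Of 3470 probe sets with no gene listed, 4 were bright in the double mutant only and 8 in the wild type only.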

How the results depend on the processing

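The count of called probe sets kept within 1.5 times of its value of 3277 in all settings except leaving out the dimmest 50% of probe sets, where 2749 were tested and 2092 called. The lower count of 1608 became 925 in that setting and 921 with poly-A control scaling. With 1 array left out in turn, called probe sets numbered 2828 to 3331, higher ones 1432 to 1725 and lower ones 1379 to 1649, and where a wild-type array is left out the lone one is assumed to vary like the other groups. The replicate block gave 3196 calls, and with the block EAF1 was called (-0.32, limma adjusted p = 0.022) and SPB4 was not (-0.24, limma adjusted p = 0.054). Increases made up 46.5% to 55.8% of calls in all settings but poly-A control scaling. Of the named genes' values, 5370 kept direction and side of the threshold, 102 lost the call, 3 gained it and 1 changed sign: GLN1, the glutamine synthetase, was at 0.19 (limma adjusted p = 0.035) and at -0.065 with quantile normalization (limma adjusted p = 0.129, with 0.007 to 0.245 in all alternatives). Of the counts of list members, 1939 stayed within 1.5 times and 131 did not, 34 of them with the dimmest 50% left out, which tests fewer genes, and 28 with poly-A control scaling. With the dimmest 50% left out the polymerases had 13 members higher, G1/S genes 13, G2/M genes 4, iron uptake 6 and meiosis 4 lower. With poly-A control scaling SAGA genes had 5 lower, SWR1 and INO80 genes 2, daughter-cell genes 4, deacetylases 4 and haploid genes 4, and quantile normalization gave 11 lower cell wall genes. The planned search for promoter motifs was not run because no promoter sequences were used here. Signal over background limits what can be said of the 1100 probe sets left out as dim, most genes of meiosis and of a cells among them.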

Other observations

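Isoforms of several enzymes moved in opposite directions in the double mutant. Of 20 pairs of isoforms, written down after the values were known, 11 had members called in opposite directions. Of all probe sets 37.9% were called higher and 36.6% lower. Picked in this way, the pairs give no share for isoforms in general. GND1 and GND2, the 6-phosphogluconate dehydrogenases, were at 2.26 and -3.30 on the log2 scale. GND1 had 1105 and 1090 in the wild type and 5884, 6053 and 5266 in the double mutant, and GND2 had 3658 and 3799 against 404, 233 and 201. TKL1 and TKL2, the transketolases, were at 1.66 and -1.59, and SOL3 and SOL4, the phosphogluconolactonases, at 2.47 and -1.11. PMA1, the main proton pump of the plasma membrane, was at 0.77 and its paralogue PMA2 at -3.18, from 3832 and 4300 to 397, 325 and 304.

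The other 9 pairs followed other patterns. HXK2 and HXK1 were both higher, at 1.94 and 0.43. IDP1 and IDP2, the mitochondrial and cytosolic isocitrate dehydrogenases, were both lower, at -0.77 and -3.24. TDH3 and TDH1, at 0.17 and -0.11, were not called in either case. Their signals lay between 5896 and 8291 on the wild-type and double-mutant arrays.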
